A study of Rattus norvegicus with 6 samples.

Results

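The 10 genes described here encode transcription factors of the AP-1 and immediate early groups, and their response to NQO1 knockdown was small in most cases. They are the FOS family genes Fos, Fosb, Fosl1 and Fosl2, the JUN family genes Jun, Junb and Jund, the zinc finger factor Egr1, the stress factor Atf3 and the orphan nuclear receptor Nr4a2. They were chosen by name, each name matched 1 gene of the 18746 in the count table, and all 10 were among the 12420 genes that passed the filter on low counts. In the deposited annotation Fosl1 and Fosb lie on chromosome 1, Nr4a2 on 3, Jun on 5, Fos and Fosl2 on 6, Atf3 on 13, Jund on 16, Egr1 on 18 and Junb on 19. After NQO1 knockdown Jun and Nr4a2 were lower, Junb was higher, and the other 7 did not pass the test.

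The cells were labelled PC12, the name of a line from a rat adrenal pheochromocytoma, and 6 libraries of polyadenylated RNA were sequenced. In the 3 siNQO1 samples the cells received a reagent against NQO1, and in the 3 siCtrl samples a control reagent. NQO1 is a flavoprotein that reduces quinones and is part of the antioxidant response. The paper names siRNA duplexes delivered by lipofection, whereas the sample labels name an shRNA and a control plasmid. The grouping is the same in both, 1 reagent stands for the knockdown, and no untransfected cells were part of the comparison. The paper calls the samples of a group biological replicates, the labels do not say whether each was a separate culture, and every p-value reflects how far these samples scatter. Where 3 values are given for a group, they are in the order of replicates 1, 2 and 3.

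AP-1 is a dimer of basic leucine zipper proteins. JUN proteins pair with each other or with FOS proteins, whereas FOS proteins need a JUN partner to bind DNA, and JUNB and JUND are often weaker activators than JUN. Fos, Fosb, Egr1, Junb and the NR4A genes are classic immediate early genes: a growth factor, depolarization or stress switches them on quickly through SRF, its ETS partners and CREB that are already in the cell, and their mRNAs are short-lived. In the PC12 line treated with nerve growth factor or epidermal growth factor, Egr1 and Fos are textbook early responses.

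Between 28873824 and 39467230 reads per library fell in genes, and the 10 members took 0.116% to 0.138% of them. The targeted gene Nqo1 fell to 22.8% of its siCtrl level in the fit, with 320.5 to 368.6 FPKM in siCtrl and 75.2 to 80.8 in siNQO1. FPKM is the read count scaled by transcript length and library size, and CPM is scaled by library size alone. A gene passed, or was called, at an adjusted p under 0.05 in the quasi-likelihood test of edgeR, and a log2 fold change is siNQO1 relative to siCtrl. siCtrl replicate 2 stood apart from the other siCtrl libraries on the first principal component, with a score of 5.08 against -32.2 and -20.7, and siNQO1 scored 12.1 to 19.6. The data went against the label PC12, since markers of chromaffin cells were nearly absent. In all, 7 of 8 chromaffin genes, among them the catecholamine enzymes Th, Dbh and Ddc and the granule protein Chga, summed to 17 to 28 reads per siCtrl library and 21 to 28 per siNQO1 library. Of the Schwann cell markers, Sox10 was at 192 to 233 FPKM and S100b at 169 to 250.4 over all libraries, and summed FPKM was 424.8 to 488.0 in siCtrl and 379.7 to 386.4 in siNQO1. S100b fell by 0.45 on the log2 scale and Sox10 did not pass. Fibroblast markers summed to 50.6 to 51.4 FPKM in siCtrl and 46.0 to 49.3 in siNQO1, nearly all of it Pdgfra with Dcn at or near 0. Immune markers summed to 2.50 to 4.42 FPKM and endothelial markers to 0.96 to 1.23 over all libraries. The identity of the cells was not tested further, and the name PC12 is used here only as the label gives it. Whether the Schwann cell markers have a part in the values below was not tested.

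Promoter sequence was available for 7 of the 10 members in the RefSeq table of build GRCr8, of which 3 are shown for the reasons given below. The 250 bases before the annotated start are given 5′ to 3′ on the strand of the gene, with capitals for matches to the cyclic AMP response element CRE (TGACGTCA), its core (TGACG, which also lies within the CRE), the AP-1 site (TGANTCA), the EGR site (GCGNGGGCG) and the CArG box bound by SRF. Both strands were searched, and a match on the other strand reads as the reverse complement. Junb is shown as the member that rose (chr19:40080876-40081125, plus strand), Jund as its relative that did not (chr16:18769772-18770021, minus strand), and Egr1 for its SRF motifs (chr18:26736828-26737077, plus strand).
Junb: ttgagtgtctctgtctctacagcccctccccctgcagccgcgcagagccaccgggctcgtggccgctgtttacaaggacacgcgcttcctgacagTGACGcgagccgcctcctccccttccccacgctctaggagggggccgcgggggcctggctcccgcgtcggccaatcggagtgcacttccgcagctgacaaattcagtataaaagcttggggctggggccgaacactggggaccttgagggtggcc
Jund: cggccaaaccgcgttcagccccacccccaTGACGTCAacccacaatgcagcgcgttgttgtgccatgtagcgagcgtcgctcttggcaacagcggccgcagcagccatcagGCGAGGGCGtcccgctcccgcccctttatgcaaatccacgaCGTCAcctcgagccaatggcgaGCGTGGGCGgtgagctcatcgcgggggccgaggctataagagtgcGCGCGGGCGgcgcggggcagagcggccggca
Egr1: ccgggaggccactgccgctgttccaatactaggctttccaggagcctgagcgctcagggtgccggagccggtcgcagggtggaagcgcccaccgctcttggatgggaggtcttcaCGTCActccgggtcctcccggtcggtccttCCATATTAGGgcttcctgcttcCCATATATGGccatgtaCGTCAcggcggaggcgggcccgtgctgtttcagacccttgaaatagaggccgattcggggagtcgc

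The Egr1 window holds 2 CArG boxes, at 105 and 83 bases before the start, and 2 CRE cores. The Jund window holds 1 CRE, 3 matches to the EGR site and a further CRE core, and the Junb window 1 CRE core. Over all 33469 windows of the table a CRE was present in 1.59%, a CRE core in 18.2%, an AP-1 site in 6.34%, an EGR site in 4.29% and a CArG box in 1.50%. Among the 7 members a CRE core was present in 5 (Fosl1, Junb, Jund, Egr1 and Nr4a2), an EGR site in 2 (Fosl2 and Jund), a CArG box in 1, a CRE in 1 and an AP-1 site in 0. Fosb had no match in this window. Fos, Jun and Atf3 were not matched in the table. These matches describe letters in 1 window per gene, and no binding was measured.

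**Figure D1:**
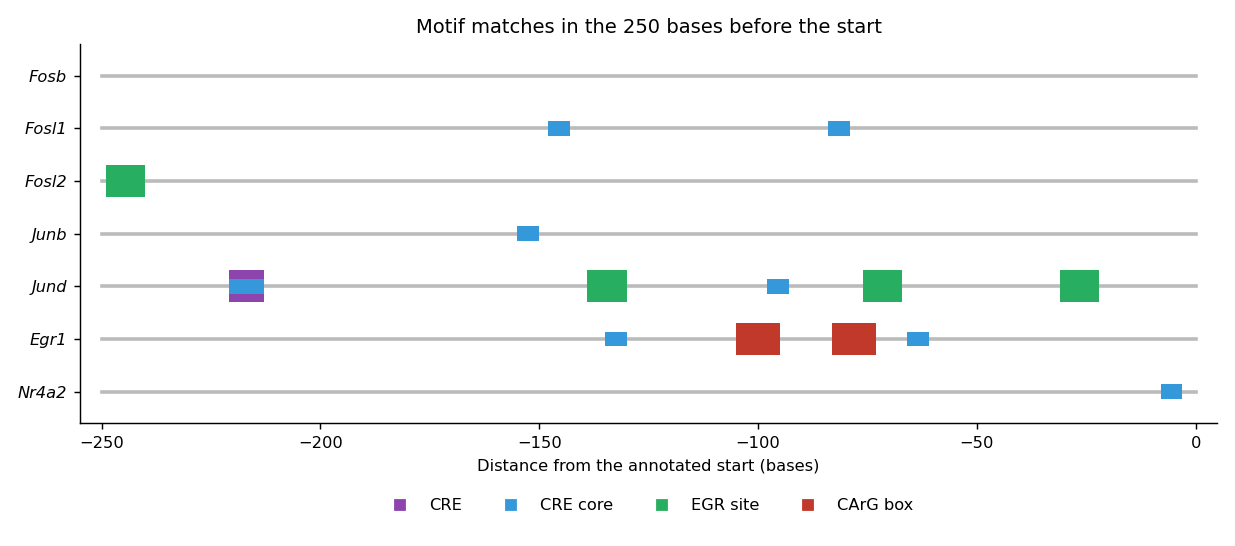
Matches to 5 motifs in the 250 bases before the annotated start of 7 members (horizontal axis, bases from the start), with colored boxes for matches on either strand and no AP-1 site found. The Jund line carries 3 EGR sites and 1 CRE, the Egr1 line 2 CArG boxes, and the Junb line 1 CRE core.

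Jun was the most abundant member and fell slightly. Its product is the main partner of FOS proteins and a target of the kinase JNK. Its level was 242, 234 and 243 FPKM in the siCtrl libraries and 197, 197 and 205 in the siNQO1 libraries. Every siNQO1 library lay below every siCtrl library, and the distance between the groups was larger than the range within either. The means were 239.9 ± 4.83 (SD, n = 3) and 199.8 ± 4.76 (SD, n = 3), so that 84.0% of the siCtrl level remained in the fit (log2 fold change -0.25 with a standard error of 0.048, edgeR adjusted p = 0.0127). Without siCtrl replicate 3 it no longer passed (log2 fold change -0.23, adjusted p = 0.0518 from edgeR). It passed without any of the other 5 libraries. In bulk samples such as these, less RNA per cell and fewer cells that express a gene cannot be told apart.

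Junb moved the other way. JUNB dimerizes like JUN and can oppose it at some promoters. Its level was 60.3, 59.5 and 65.5 FPKM in the siCtrl libraries and 72.9, 73.8 and 75.5 in the siNQO1 libraries, without overlap. The fit gave a rise of 0.27 on the log2 scale, or 1.21-fold (with a standard error of 0.056 and an adjusted p = 0.0166 in edgeR). It passed without any 1 siCtrl library and not without siNQO1 replicate 1, 2 or 3 (adjusted p = 0.0568, 0.0649 and 0.0598 from edgeR, log2 fold changes from 0.26 to 0.27).

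Jund, the JUN gene that many resting cells express steadily, was at 86.4, 95.8 and 113 FPKM in the siCtrl libraries. In the siNQO1 libraries it was at 83.0, 82.5 and 82.4 FPKM. The siNQO1 libraries lay together just under the lowest siCtrl library, while the siCtrl libraries spread widely. Its log2 fold change was -0.24 (95% interval -0.46 to -0.03, adjusted p = 0.132 from edgeR), so it did not pass. It passed without siCtrl replicate 1 (-0.35, adjusted p = 0.0321 from edgeR) or siCtrl replicate 2 (-0.27, adjusted p = 0.0328 from edgeR), and in DESeq2 on all libraries (-0.25, adjusted p = 0.0491).

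Within the JUN family the share of Junb was larger in siNQO1. Of the summed FPKM of Jun, Junb and Jund, Junb made up 15.4% ± 0.147 (SD, n = 3) in siCtrl, against 20.8% ± 0.135 (SD, n = 3) after knockdown. Jun had a share of 60.02% ± 2.34 (SD, n = 3), against 56.0% ± 0.423 (SD, n = 3) after knockdown. For Jund these shares were 24.6% ± 2.33 (SD, n = 3) and 23.2% ± 0.422 (SD, n = 3). The ratio of Junb to Jun FPKM was 0.249, 0.254 and 0.269 in the siCtrl libraries and 0.369, 0.375 and 0.368 in the siNQO1 libraries. The ratios of the groups did not overlap, and they combine the 2 members that passed in opposite directions. Summed over the 3 genes, siCtrl had 400.2 ± 19.1 FPKM (SD, n = 3), against 356.5 ± 5.80 (SD, n = 3) after knockdown. The shares and ratios combine members and were not tested.

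**Figure D2:**
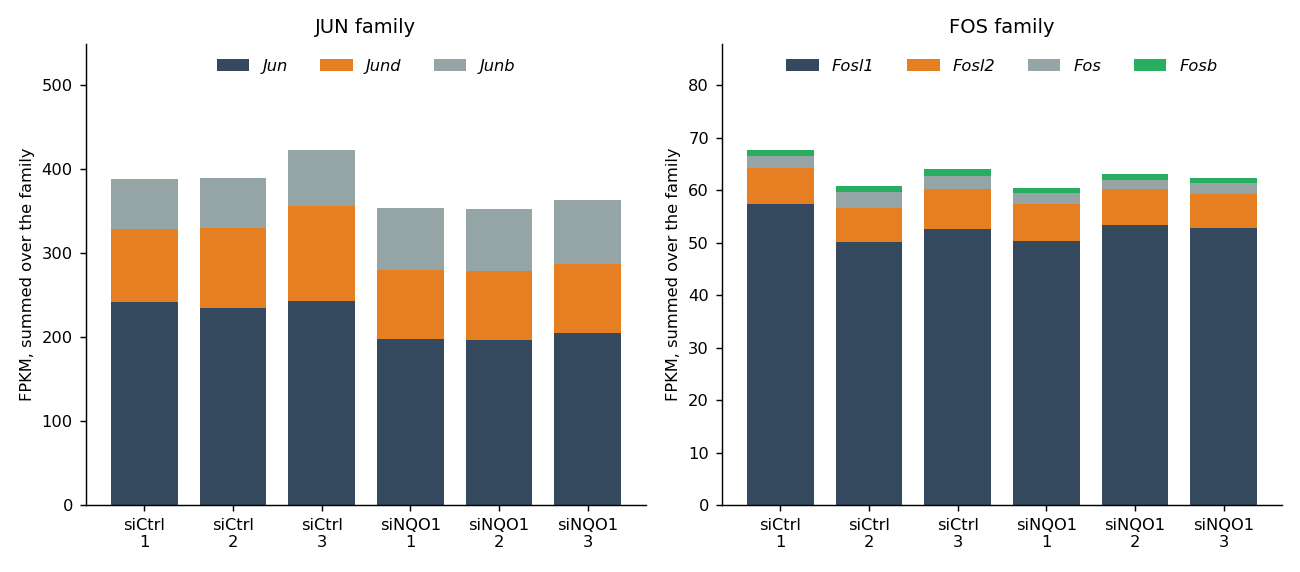
FPKM of the JUN family genes (left) and FOS family genes (right) stacked for each library, with the libraries on the horizontal axis and FPKM on the vertical axis. The Junb part makes up 20.8% of the JUN family in siNQO1 against 15.4% in siCtrl, and Fosl1 makes up most of every FOS family bar.

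No FOS family gene passed the test. Fosl1, which encodes FRA1 and often stays high in proliferating cells, was the dominant member, at 57.4, 50.2 and 52.7 FPKM in the siCtrl libraries and 50.3, 53.5 and 52.8 in siNQO1 replicates 1, 2 and 3. The groups overlapped, and the log2 fold change was -0.02 (95% interval -0.16 to 0.12, adjusted p = 0.856 from edgeR). Fosl1 accounted for 83.2% ± 1.51 (SD, n = 3) of the FPKM of the family in siCtrl, against 84.2% ± 0.840 (SD, n = 3) after knockdown.

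Fosl2, which encodes FRA2, was at 6.39 to 7.65 FPKM in siCtrl and 6.60 to 7.11 in siNQO1, with a log2 fold change of -0.02 (95% interval -0.30 to 0.25). Reads per unit of FPKM give the length behind an FPKM value, and for Fosl2 this length was 0.241 times that of Jun, the shortest of the 10, against 0.514 for Fos and 1.21 for Fosb. The level of Fosl2 relative to other genes therefore depends on the transcript model of the authors, whereas its difference between groups does not.

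Fos itself was low. It was at 2.32, 3.11 and 2.50 FPKM in the siCtrl libraries and 2.12, 1.84 and 1.96 in siNQO1 replicates 1, 2 and 3, from 111 to 201 reads per library. The groups did not overlap, and the highest value was in siCtrl replicate 2, the library that stood apart. The log2 fold change was -0.41 (95% interval -0.75 to -0.07, adjusted p = 0.113 from edgeR), and it was -0.28 without siCtrl replicate 2, where it did not pass either (adjusted p = 0.204 from edgeR). Its adjusted p was 0.0917 to 0.314 over the 6 fits with 1 library left out. Fosb was at 0.98 to 1.24 FPKM in siCtrl and 0.90 to 1.10 in siNQO1, with a log2 fold change of -0.13 (95% interval -0.46 to 0.20, adjusted p = 0.592 from edgeR).

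Nr4a2 had the largest fall among the members. It encodes NURR1, an orphan nuclear receptor needed for dopamine neurons, and its relatives Nr4a1 and Nr4a3 are early response genes as well. Its level was 0.73, 0.96 and 1.07 FPKM in the siCtrl libraries and 0.65, 0.41 and 0.48 in siNQO1 replicates 1, 2 and 3, from 53 to 146 reads per library. Every siNQO1 library was lower than every siCtrl library, with siCtrl replicate 1 and siNQO1 replicate 1 nearest to each other. The fit left 56.1% of the siCtrl level (log2 fold change -0.83 with a standard error of 0.22, 95% interval -1.33 to -0.34, adjusted p = 0.0401 from edgeR). Without siCtrl replicate 3, siNQO1 replicate 2 or siNQO1 replicate 3 it no longer passed (log2 fold changes -0.71, -0.71 and -0.79, adjusted p = 0.136, 0.154 and 0.144 from edgeR). On log2(FPKM + 1), where low genes are compressed, its log2 fold change was -0.34 (adjusted p = 0.0959 from limma). With the replicate number as a block it was -0.84 (adjusted p = 0.0670 from edgeR).

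Of its relatives, Nr4a1 was far more abundant, at 38.6 to 45.6 FPKM in siCtrl and 34.0 to 35.7 in siNQO1 (log2 fold change -0.25, adjusted p = 0.0541 from edgeR). Nr4a3 was at 0.41 to 0.58 FPKM in siCtrl and 0.36 to 0.53 in siNQO1 (log2 fold change -0.29, adjusted p = 0.416 from edgeR). The 9 genes commonly placed under NR4A2, mostly of dopamine neurons, could not be tested. None passed the filter, Vip was not listed, and Th had 3 to 6 reads per library.

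Egr1 separated the siNQO1 libraries from each other. Its product binds GC-rich sites and is held in check by the corepressors NAB1 and NAB2. It was at 6.21, 6.58 and 7.62 FPKM in the siCtrl libraries. In siNQO1 it was at 7.29 FPKM in replicate 1, within the siCtrl range, and at 3.92 and 4.04 in replicates 2 and 3, below it. The log2 fold change was -0.41 (95% interval -0.93 to 0.11, adjusted p = 0.277 from edgeR). Without siNQO1 replicate 1 it was -0.78 and passed (adjusted p = 0.0178 from edgeR). Its normalised read count was 1.86 times as high in siNQO1 replicate 1 as in the mean of the other siNQO1 libraries, and of the 8610 genes with an average log2 CPM above 3 only 4, Egr1 included, had a ratio this high. Egr2, a close relative, fell by 0.40 on the log2 scale (adjusted p = 0.0371 from edgeR). Egr2 was at 3.51 to 3.93 FPKM in siCtrl and 2.65 to 3.05 in siNQO1, and did not pass without siCtrl replicate 3 or any 1 siNQO1 library (highest adjusted p = 0.148 from edgeR). Egr3 was at 0.08 to 0.17 FPKM over all libraries.

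Atf3, a stress-induced factor that pairs with JUN proteins and lies downstream of ATF4, was at 2.37, 2.61 and 2.86 FPKM in the siCtrl libraries and 2.45, 2.18 and 2.31 in siNQO1 replicates 1, 2 and 3. The groups overlapped. The log2 fold change was -0.17 (95% interval -0.43 to 0.10, adjusted p = 0.386 from edgeR).

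**Figure D3:**
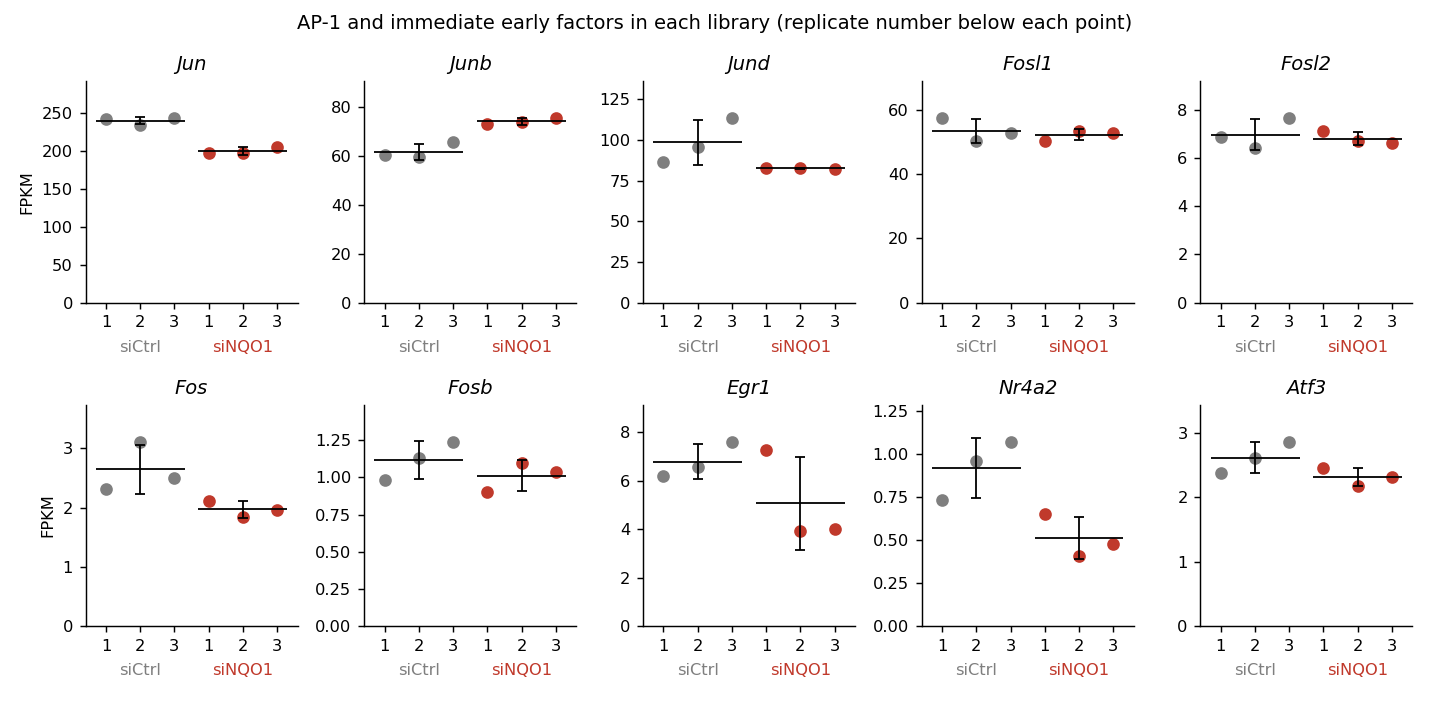
FPKM of each of the 10 genes (vertical axes, which start at 0) in the 3 siCtrl libraries (gray) and the 3 siNQO1 libraries (red), with the replicate number on the horizontal axis and black lines for the group mean ± SD (n = 3). Jun has a mean of 239.9 FPKM in siCtrl and 199.8 in siNQO1, and Egr1 in siNQO1 replicate 1 lies at 7.29, apart from 3.92 and 4.04 in the other siNQO1 libraries.

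Counted together, 1 of the 10 members was higher and 2 were lower at an adjusted p under 0.05, where 5.27% of all genes tested were higher and 7.38% lower. None passed a fold of 2 as well, a threshold that 0.435% of all genes passed with the adjusted p. In 5 members (Jun, Junb, Jund, Fos and Nr4a2) the normalised read counts of the groups did not overlap, which held for 34.2% of all genes tested. The log2 fold change was negative in 9 of 10 members and in 48.3% of all genes, with medians of -0.20 and 0.01. The members are low in number and some respond to the same signals, so these counts are a description.

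The counts moved with siCtrl replicate 3, and its part in them is given here by leaving it out. In siCtrl replicate 3, 9 of 10 members were above their siCtrl mean, against 2 in siCtrl replicate 1 and 3 in siCtrl replicate 2. Without siCtrl replicate 3 the median log2 fold change of the members was -0.10, with 8 negative, and Junb was the member called. In that fit all genes had a median of 0.01, with 48% negative, and 749 of 12635 were called, against 1571 of 12420 with all libraries. Without siCtrl replicate 1 the median of the members was -0.26, with 8 negative, against -0.01 and 52.2% negative over all genes. Without 1 of the other 4 libraries the median of the members lay between -0.25 and -0.21, with 9 negative, where 49.5% to 51.3% of all genes were negative.

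**Figure D4:**
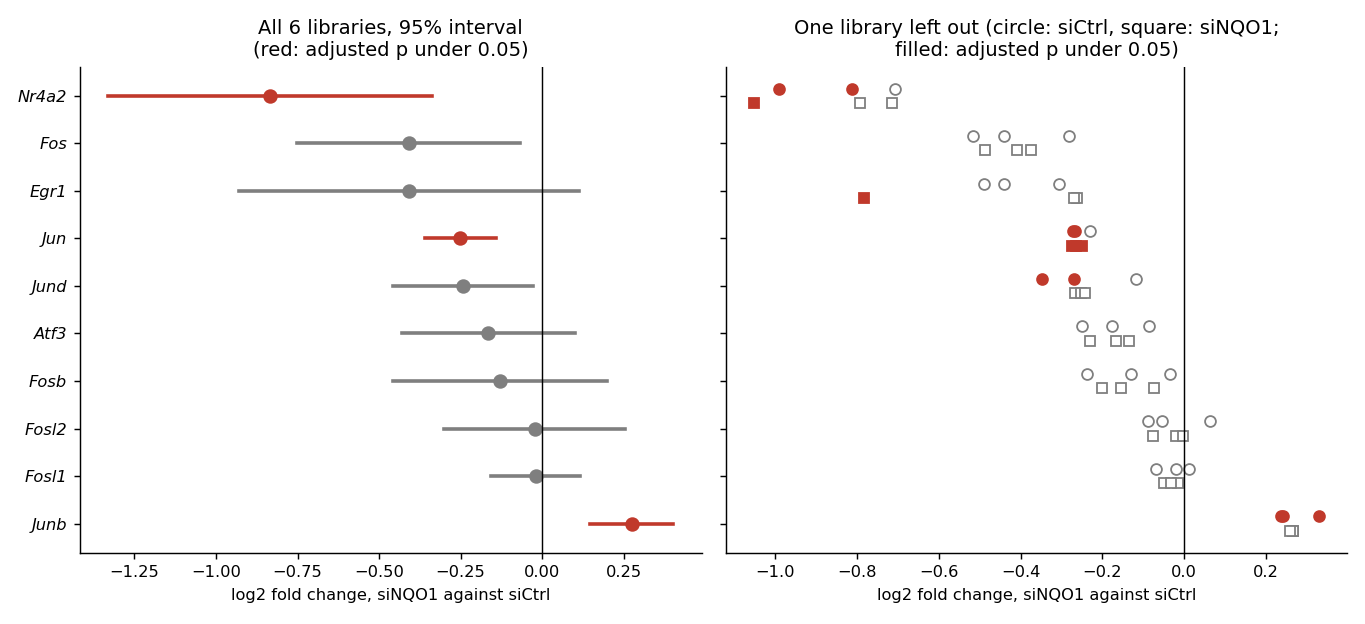
Log2 fold change of each member, siNQO1 against siCtrl, from all 6 libraries with 95% intervals (left) and with 1 library left out at a time (right). Junb is right of 0 and Jun and Nr4a2 left of 0 in every case, and Egr1 moves to -0.78 when siNQO1 replicate 1 is left out.

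By level, the members fell into the same order at the top in both groups. In siCtrl, Jun was followed by Jund (98.5 ± 13.8 FPKM, SD, n = 3), Junb (61.8 ± 3.29, SD, n = 3) and Fosl1 (53.4 ± 3.69, SD, n = 3), and the ranges of these neighbors did not overlap. Fosl2 (6.96 ± 0.638, SD, n = 3) and Egr1 (6.80 ± 0.731, SD, n = 3) overlapped, as did Fos (2.64 ± 0.414, SD, n = 3) and Atf3 (2.61 ± 0.245, SD, n = 3), and Fosb (1.12 ± 0.131, SD, n = 3) and Nr4a2 (0.920 ± 0.174, SD, n = 3). In siNQO1 Atf3 (2.31 ± 0.135, SD, n = 3) lay above Fos (1.97 ± 0.141, SD, n = 3) without overlap, and Nr4a2 (0.513 ± 0.123, SD, n = 3) lay below Fosb (1.01 ± 0.103, SD, n = 3) without overlap. All comparisons of level between genes use FPKM, which is per length.

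The genes whose profile over the 6 libraries was nearest to that of a called member, among 8604 candidates with an average log2 CPM above 3, were Numa1 and Cmtm6 for Jun, with root mean square differences of 0.012 and 0.019 on the log2 CPM scale relative to the siCtrl mean. For Junb they were Ick and Timp2 (0.026 and 0.027), and for Nr4a2 Eif1ax and Atp2b4 (0.201 and 0.202). Nr4a2 had the more distant neighbors, but its average log2 CPM was 1.515, against 9.62 for Jun and 7.13 for Junb. No gene at the level of Nr4a2 was among the candidates, so its distances are not comparable with the others.

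Other immediate early genes moved in both directions. Of 37 tested, 4 were higher, 5 lower and 28 did not pass, with a median log2 fold change of -0.07. Among all genes tested, 5.27% were higher and 7.38% lower, with a median of 0.01. The factors Klf2, Cebpd and Klf4 and the stress gene Gadd45b rose, with log2 fold changes of 1.23, 0.69, 0.30 and 0.35. Besides Egr2, the small GTPases Rhob and Gem, Ier3 and the EGF receptor inhibitor Errfi1 had log2 fold changes of -0.49, -0.40, -0.38 and -0.42. Rhob was at 57.5 to 61.4 FPKM in siCtrl and 40.6 to 43.3 in siNQO1, and Cebpd at 12.4 to 13.1 and 19.6 to 21.2. Klf4 passed only without siCtrl replicate 2 when 1 library was left out (highest adjusted p = 0.147 from edgeR), and Gem and Errfi1 did not pass without siNQO1 replicate 2 (adjusted p = 0.0577 and 0.0508 from edgeR). Abundant members that did not pass included Ctgf (log2 fold change 0.05), Nr4a1 and Ier5 (-0.11). With 1 library left out, 3 to 7 were higher and 2 to 8 lower, with 2 lower without siNQO1 replicate 2 and the most of each direction without siCtrl replicate 2. Calls over all genes were likewise fewest without siNQO1 replicate 2 (518) and most numerous without siCtrl replicate 2 (4200).

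The other AP-1 and Maf factors listed gave no call. None of the 8 tested passed, where 5.27% of all genes tested were higher and 7.38% lower. Their log2 fold changes ran from -0.18 in Maff to 0.22 in Mafk, with Jdp2, a JUN dimerization protein, at -0.01. Without siCtrl replicate 2, 1 was higher.

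Of 20 kinases tested upstream of the members, 1 was higher, 3 were lower and 16 did not pass. The shares over all genes tested were 5.27% higher and 7.38% lower. The MAP kinase genes Mapk14 and Mapk3 (p38 alpha and ERK1) were among the lower and the kinase gene Rps6ka4 (MSK2) was higher. For Mapk14, Mapk3 and Rps6ka4 the log2 fold changes were -0.38, -0.31 and 0.24. Rps6ka4 and Mapk3 did not pass without siCtrl replicate 3 or any 1 siNQO1 library (highest adjusted p = 0.106 and 0.0697 from edgeR). Map2k2 and Map2k1 had log2 fold changes of -0.05 and -0.09 and did not pass. Of 12 SRF, ternary complex and CREB factors, the CREB coactivator Crtc1 was lower (-0.39, adjusted p = 0.0397 from edgeR) and 11 did not pass, with Srf at 0.10 and Creb1 at -0.18. Crtc1 passed only without siCtrl replicate 2 when 1 library was left out (highest adjusted p = 0.120 from edgeR).

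Among 20 feedback inhibitors and mRNA decay factors, 2 were higher and 3 lower, where 5.27% of all genes tested were higher and 7.38% lower. The phosphatases Dusp1 and Dusp4 and the EGR corepressor Nab2 were lower, at log2 fold changes of -0.39, -0.28 and -0.23, whereas Zfp36, which encodes an mRNA decay factor, and Dusp10 were higher, at 0.42 and 0.27. The higher pair passed only without siCtrl replicate 1 or 2 when 1 library was left out (highest adjusted p = 0.111 and 0.143 from edgeR), as did Nab2 (0.0793). Dusp1 did not pass without siCtrl replicate 3, siNQO1 replicate 2 or siNQO1 replicate 3 (0.0977), and Dusp4 without siNQO1 replicate 2 or 3 (0.0798).

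Of 12 genes commonly placed under AP-1, the proenkephalin gene Penk was lower and the cyclin gene Ccnd1 and the adhesion receptor gene Cd44 were higher, and 9 did not pass. The shares called over all genes tested were 5.27% higher and 7.38% lower. Penk was at 178 to 216 FPKM in siCtrl and 128 to 133 in siNQO1 (log2 fold change -0.57, adjusted p = 0.00297 from edgeR), and it passed without any 1 library. Ccnd1 and Cd44 were higher by log2 fold changes of 0.23 and 0.20, and passed only without siCtrl replicate 1 or 2 when 1 library was left out (highest adjusted p = 0.102 and 0.124 from edgeR). The abundant genes Spp1, Hmox1 and Tgfb1 had log2 fold changes of -0.21, 0.01 and -0.17 and did not pass. Around Atf3, 1 of 12 genes of the ATF4 pathway passed, the pseudokinase gene Trib3 (log2 fold change -0.38, adjusted p = 0.0416 from edgeR), which passed only without siCtrl replicate 2 when 1 library was left out (highest adjusted p = 0.139 from edgeR). Atf4 itself was at -0.14 and Ddit3 at 0.09.

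**Figure D5:**
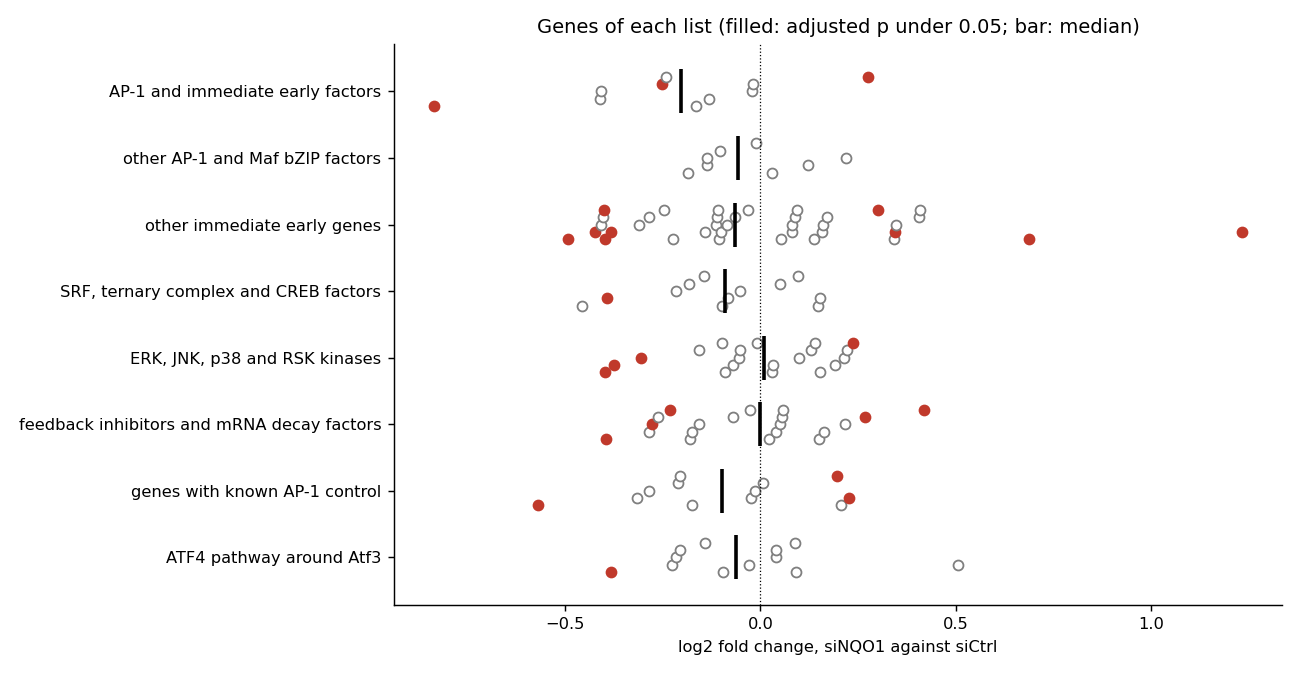
Log2 fold change of each tested gene (points, horizontal axis) in the 10 members and 7 gene lists, with filled points at an adjusted p under 0.05 and a black bar at the median of the list. The medians of the lists other than the members lie between -0.10 and 0.01, and the members have a median of -0.20.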

How the data were processed

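Raw reads were cleaned by the authors, aligned to the RGSC6 genome with TopHat2, and uniquely mapped reads were used. The authors deposited raw read counts, 1 whole number for each gene and library. They also deposited FPKM, which scale those reads by transcript length and library size. The sources used here do not name the counting tool or its strand setting, and overlapping genes may share reads. Counts were analyzed with edgeR 4.0.16 in R 4.3.3: filterByExpr, TMM scaling (factors 0.987 to 1.02), glmQLFit and glmQLFTest on all 6 libraries without a block, two-sided, with Benjamini-Hochberg adjustment over 12420 genes. Intervals at 95% use the t distribution of that fit and are not adjusted. The test was checked on simulated counts. Depth is the reads counted in genes, from 28873824 to 39467230, and intervals cover the spread between these libraries. The alternatives were other scalings, filters, tests (DESeq2 1.42.0, limma 3.58.1), FPKM with pseudocounts of 1 and 0.1, a block and libraries left out.

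The members and gene lists were chosen with earlier results of these data known. Named list genes are up to 6 called genes with the smallest p and up to 3 abundant uncalled genes per list, and the other list genes named, such as Egr2, Egr3, the NR4A relatives, Klf4 and Errfi1, were chosen after their values were seen. For each called member, the 2 non-members nearest in profile are named, among genes with an average log2 CPM above 3. Promoters are from the RefSeq table of GRCr8, another build than that of the files, and were matched by symbol. Splicing was not analysed here. Some genes of the lists are not reported here.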

Additional observations from a re-analysis of the deposited data

How the results depend on the processing

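Of 199 recomputed member values, 183 kept their direction and their side of the threshold, 10 lost a call, 4 gained 1 and 2 changed sign, the last being Fosl1 without siCtrl replicate 1 and Fosl2 without siCtrl replicate 3. With 1 library left out, the log2 fold change of Fosl1 ran from -0.0685 (without siCtrl replicate 2) to 0.0125 and that of Fosl2 from -0.0890 (without siCtrl replicate 2) to 0.0619, and the cause was not tested. The 3 called members, Jun, Junb and Nr4a2, were also called under each other scaling and filter of the counts and in limma voom and the other edgeR tests (exact, likelihood ratio), and DESeq2 added Jund. With limma on FPKM, 2 members were called, Jun and Junb. With a fold of 2 required as well, 0 members passed, and with 1 library left out 1 to 4 were called, and it was 1 without siCtrl replicate 3, siNQO1 replicate 2 or siNQO1 replicate 3. Over all genes, 1571 were called, against 990 and 1041 with limma on log2(FPKM + 1) and log2(FPKM + 0.1), 54 with a fold of 2, and 518 (without siNQO1 replicate 2) to 4200 (without siCtrl replicate 2) with 1 library left out. The labels and the paper do not say whether same-numbered libraries were prepared as pairs. After the group mean was removed, their deviations correlated at -0.04, 0.16 and 0.06, which cannot settle this with 3 libraries per group. With the replicate block 1350 genes and 2 members were called, Nr4a2 being lost. A robust fit, chosen after seeing the data, called 1818 genes and the same 3 members. Over the scalings, all genes had a median log2 fold change between 0.004 and 0.022. Depth limits Nr4a2, Fos and Fosb, which rest on 53 to 201 reads per library.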

Other observations

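A few other early genes were, like Egr1, higher in siNQO1 replicate 1 than in the other siNQO1 libraries. Among the 47 immediate early genes tested, the members included, the ratio of the normalised read count in siNQO1 replicate 1 to the mean of siNQO1 replicates 2 and 3 was, after Egr1, highest at 1.46 times in Nr4a2, 1.46 times in Nfkbiz and 1.43 times in Nr4a3, and 1.15 times in Egr2. Nr4a2, Nfkbiz and Nr4a3 rest on only 53 to 118 reads per siNQO1 library, against 467 to 880 for Egr1. Fos was 1.13 times as high, while Jun, Junb and Nr4a1 were at 0.996, 0.990 and 0.987 times. At the other end, Rgs2 was at 0.75 times and Tnfaip3 at 0.790 times, with 70 to 123 reads per siNQO1 library for Rgs2. The genes that stood out were chosen after their values were seen, and the difference between libraries of 1 group was not tested.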
